A study of Astatotilapia calliptera and Haplochromis burtoni and Pundamilia nyererei with 40 samples.

Results

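Fox and Sox genes encode transcription factors, and 60 of them were described here in gonads and brains of African cichlid fishes. The members were the genes whose symbol, in the gene names deposited with the Astatotilapia calliptera (AC) expression table, began with fox and a letter from a to r, or with sox, followed by a digit. They were 42 Fox and 18 Sox genes of 26977 genes in that table, of which 16908 carried a symbol, and they held 58 symbols because foxm1 stood on 3 gene identifiers. All 60 identifiers were also found in the count table of Lake Malawi testes. The samples had been taken to examine transposable elements (TEs) and the piRNA pathway that silences them in several cichlid species. Of 40 gonad and brain samples, 20 are used here. Bulk mRNA-seq had been made from testes of Tropheops sp. 'mauve' (TM, n = 4), testes of Maylandia zebra (MZ, n = 2) and testes of AC (n = 4), and from AC ovary (n = 4), AC male brain (n = 3) and AC female brain (n = 3). All fish were labelled wild-type and no agent was given; AC and TM had been raised in aquaria, and the MZ testes came from dominant, captive-bred adult males of a commercial supplier. Replicates were pieces of tissue from size-matched individuals, the brain region was not given, and ages were not given in the sources used here.

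The Fox proteins share a winged-helix DNA-binding domain named after the fly gene forkhead. The Sox proteins share a high-mobility-group box like that of the mammalian sex-determining factor Sry. Both families are split into lettered groups whose members often act in the same tissue: SoxB1 factors keep neural progenitors undifferentiated, SoxE factors act in Sertoli cells, glia and neural crest, SoxF factors in endoderm and vessels, Foxj1 switches on the genes of motile cilia, and FoxO factors are held out of the nucleus by insulin signalling. Teleost fishes underwent an additional genome duplication, so that many of these genes exist as an a and a b copy. In fish gonads, Sox9, Sox8 and Sox3 are studied for their roles in testis and ovary differentiation, and zebrafish foxr1 and foxh1 are maternal genes whose mRNA is stored in the egg.

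Between 18241046 and 22360362 reads were assigned to genes in the AC gonad libraries, and between 6728130 and 19685495 in the AC brain libraries. In the Lake Malawi testes table the range was 23631390 to 26742599 for genes and TEs together. The labelled organs carried their markers: 11 neuron markers summed to 16.7 to 44.1 TPM (transcripts scaled to a fixed library total) in testes, 12.0 to 44.98 TPM in ovary, 5355 to 6525 TPM in male brain and 5922 to 6770 TPM in female brain. The 4 spermatid and sperm markers found summed to 95.8 to 966 TPM in testes and 2.11 to 9.29 TPM in ovary. The 5 oocyte markers found (bmp15, figla, gdf9, org and zar1) summed to 4222 to 6480 TPM in testes and 4621 to 6938 TPM in ovary, so their sum did not separate the gonads. Of these 5, gdf9 alone was called between the gonads, lower in testes (log2 fold change -0.81, edgeR, adjusted p = 0.0137). AC ovary replicate 1 stood apart, with a correlation of 0.884 to the rest of its group against 0.951 to 0.974 for the other ovaries, and with counts in 17675 genes against 20072 to 21462. Its TMM factor, which rescales library size in the tests, was 0.5445, against 0.947 to 1.072 for the other ovaries. TPM values are not scaled in this way, so its TPM can stand lower beside the other ovaries than its tested level. AC male brain replicate 1 held 43450 TPM of pituitary hormone genes, against 2.39 and 18.45 TPM in the other male brains and 1.22 to 51.55 TPM in female brains. Brain libraries were made with another protocol, in another laboratory, than gonad libraries, so organ and library protocol cannot be told apart. In bulk tissue, fewer cells of a type and less RNA per cell cannot be told apart either.

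Most Fox and Sox genes had their highest level in the brain. The mean TPM was highest in a brain group for 41 of 60 members (25 of 42 Fox and 16 of 18 Sox genes) and in a gonad for 19. A mean of at least 1 TPM was reached by 24 members in testes, 24 in ovary, 42 in male brain and 41 in female brain, and a mean of at least 10 TPM by 8, 8, 18 and 19 members. The difference was widest among the Sox genes, whose median of group means was 0.843 TPM in testes, 1.34 TPM in ovary, 23.3 TPM in male brain and 24.5 TPM in female brain. For the Fox genes the same medians were 0.481 TPM in testes, 0.329 TPM in ovary, 1.70 TPM in male brain and 1.74 TPM in female brain. In all 4 groups 15 members averaged at least 1 TPM, and 10 members stayed under 1 TPM in every group. The same counts and medians were not made over all genes. They therefore do not show whether these families differ in level from genes at large.

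**Figure D1:**
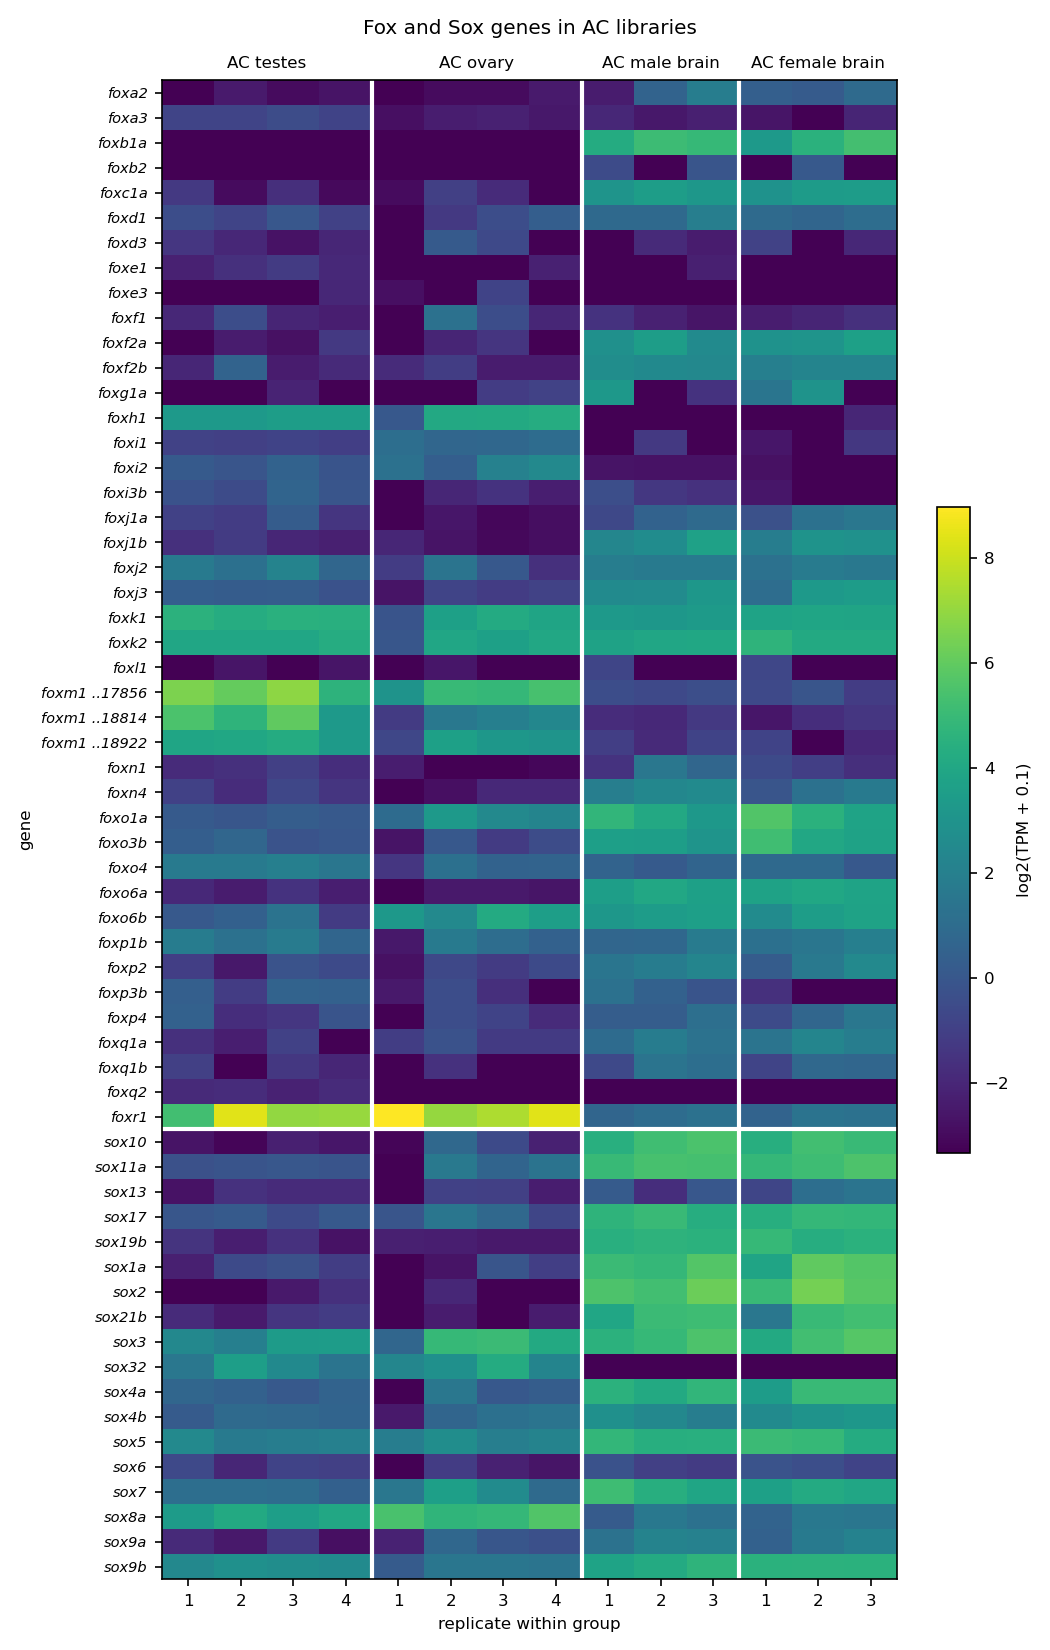
Level of the 60 Fox and Sox genes (rows, Fox above Sox) in 14 AC libraries (columns: testes, ovary, male brain, female brain), as log2(TPM + 0.1) on the colour scale. More Sox rows are bright in the brain columns than in the gonad columns: 12 of 18 Sox genes averaged at least 10 TPM in each brain group, 1 in testes and 2 in ovary.

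A small group of members was high in the gonads and low or uncounted in the brain. foxr1, a maternal-effect gene in zebrafish, was the most abundant of them. It had 38.3, 340.1, 125 and 133 TPM in testes, 503, 131, 176 and 343 TPM in ovary, 1.52, 1.94 and 2.32 TPM in male brain, and 1.39, 2.45 and 2.27 TPM in female brain. All 8 gonads lay above all 6 brains, while testes and ovaries overlapped. The log2 fold change (± SE, edgeR quasi-likelihood test over 20893 genes, Benjamini-Hochberg adjusted p) was 6.13 ± 1.01 for testes over male brain (adjusted p = 0.000119) and 8.03 ± 1.10 for ovary over female brain (adjusted p = 1.81e-05). Between testes and ovary it was -1.85 ± 0.72 and did not pass the threshold of 0.05 (adjusted p = 0.0637). On the fAstCal1.2 assembly the gene lies on chromosome 1, from 5295025 to 5298036.

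foxh1, the partner of Smad proteins in Nodal signalling, had 9.67, 9.73, 11.4 and 11.3 TPM in testes and 0.937, 17.0, 17.7 and 19.8 TPM in ovary. It had 0 TPM in the 3 male brains, and 0, 0 and 0.153 TPM in the female brains. The low ovary value belonged to replicate 1, which was still above every brain. Against male brain, where no read was counted, the testes level was at least 126-fold higher (limit set by 3 counts over the group; such limits cover counting error only), and ovary exceeded female brain by a log2 fold change of 8.76 ± 1.15 (edgeR, adjusted p = 2.62e-05).

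sox32, which specifies endoderm in zebrafish, had 2.85, 12.0, 5.63 and 2.59 TPM in testes and 4.88, 7.16, 18.8 and 4.53 TPM in ovary. No read of it was counted in any of the 6 brain libraries. Its level was at least 64.8-fold higher in testes than in male brain and at least 134-fold higher in ovary than in female brain, by the same limit of 3 counts over the group. Testes and ovary overlapped (log2 fold change -0.90 ± 0.65, adjusted p = 0.321).

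foxm1 drives the expression of genes needed for mitosis. Its entry ENSACLG00000017856 had 94.9, 66.8, 118 and 24.6 TPM in testes, 7.89, 31.0, 29.5 and 41.4 TPM in ovary, 0.643, 0.562 and 0.664 TPM in male brain, and 0.546, 0.848 and 0.358 TPM in female brain. Entry ENSACLG00000018814 had 44.5, 25.3, 62.4 and 9.78 TPM in testes and 0.344, 2.97, 3.91 and 5.14 TPM in ovary. The entry ENSACLG00000018922 had 15.1, 15.8, 19.1 and 10.2 TPM in testes and 0.520, 12.5, 9.04 and 8.19 TPM in ovary. Both of these entries stayed at or below 0.458 TPM in every brain. Each entry was higher in gonad than in brain, with log2 fold changes of 7.25 ± 0.60, 7.51 ± 0.92 and 5.80 ± 0.88 in testes over male brain and of 6.18 ± 0.58, 4.71 ± 0.90 and 5.34 ± 0.87 in ovary over female brain. Since the 3 entries share a symbol, reads may have been divided between them, and the level of each one is uncertain.

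sox8a was a SoxE gene with higher levels in both gonads than in brain. It had 10.8, 17.7, 11.7 and 16.4 TPM in testes, 44.0, 26.0, 29.3 and 50.3 TPM in ovary, 1.05, 2.93 and 2.34 TPM in male brain, and 1.40, 2.96 and 2.73 TPM in female brain. The groups were separate: every ovary lay above every testis, and every testis above every brain. The log2 fold change was 2.96 ± 0.53 for testes over male brain (edgeR, adjusted p = 0.000229) and 4.73 ± 0.57 for ovary over female brain (adjusted p = 5.74e-06). foxi2, of the group whose members specify ionocytes in fish skin and inner ear, was lower in level but had a similar order, with 1.02, 0.855, 1.36 and 0.83 TPM in testes and 2.32, 1.19, 4.19 and 5.48 TPM in ovary, against at most 0.0593 TPM in any brain. Its log2 fold change was 3.94 ± 0.77 for testes over male brain and 7.33 ± 0.88 for ovary over female brain.

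Taking all 54 members that passed the filter on low counts (foxb2, foxd3, foxe1, foxe3, foxl1 and foxq2 did not), 41 were called between testes and male brain, at an adjusted p under 0.05: 11 higher and 30 lower in testes. These were 75.9% of the tested members, and 65.0% of all genes were called there; 20.4% of members were higher (32.5% of all genes) and 55.6% lower (32.5% of all genes). Between ovary and female brain 36 were called, 9 higher and 27 lower in ovary, or 66.7% of members against 67.7% of all genes; 16.7% of members were higher (32.4% of all genes) and 50.0% lower (35.4% of all genes). The share of members called was thus near the background, and the calls leaned to the brain. The median log2 fold change of the members was -2.37 in testes over male brain (0.03 over all genes) and -2.004 in ovary over female brain (-0.07 over all genes). Without AC male brain replicate 1, 38 members were called between testes and male brain, all among the 41, and without AC ovary replicate 1, 38 were called between ovary and female brain, including all 36.

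The 8 entries higher in both gonads were foxh1, foxi2, the 3 foxm1 entries, foxr1, sox32 and sox8a. They were 72.7% of the 11 higher in testes than in male brain and 88.9% of the 9 higher in ovary than in female brain; over all genes, calls shared in this way were 77.2% of the testes list and 77.7% of the ovary list. The others were foxi1 in ovary, and foxa3, foxo4 and foxk1 in testes; whether those 4 differed between the sexes was tested in the interaction described further on, where none passed. Another 25 members were lower in both gonads, 83.3% of the 30 of testes and 92.6% of the 27 of ovary (81.4% and 74.8% over all genes). No member was called in opposite directions, as 336 genes were. The groups did not overlap for 38 of the 41 members called in testes over male brain and for 35 of the 36 called in ovary over female brain; among all called genes the groups did not overlap for 97.4% and 87.5%.

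**Figure D2:**
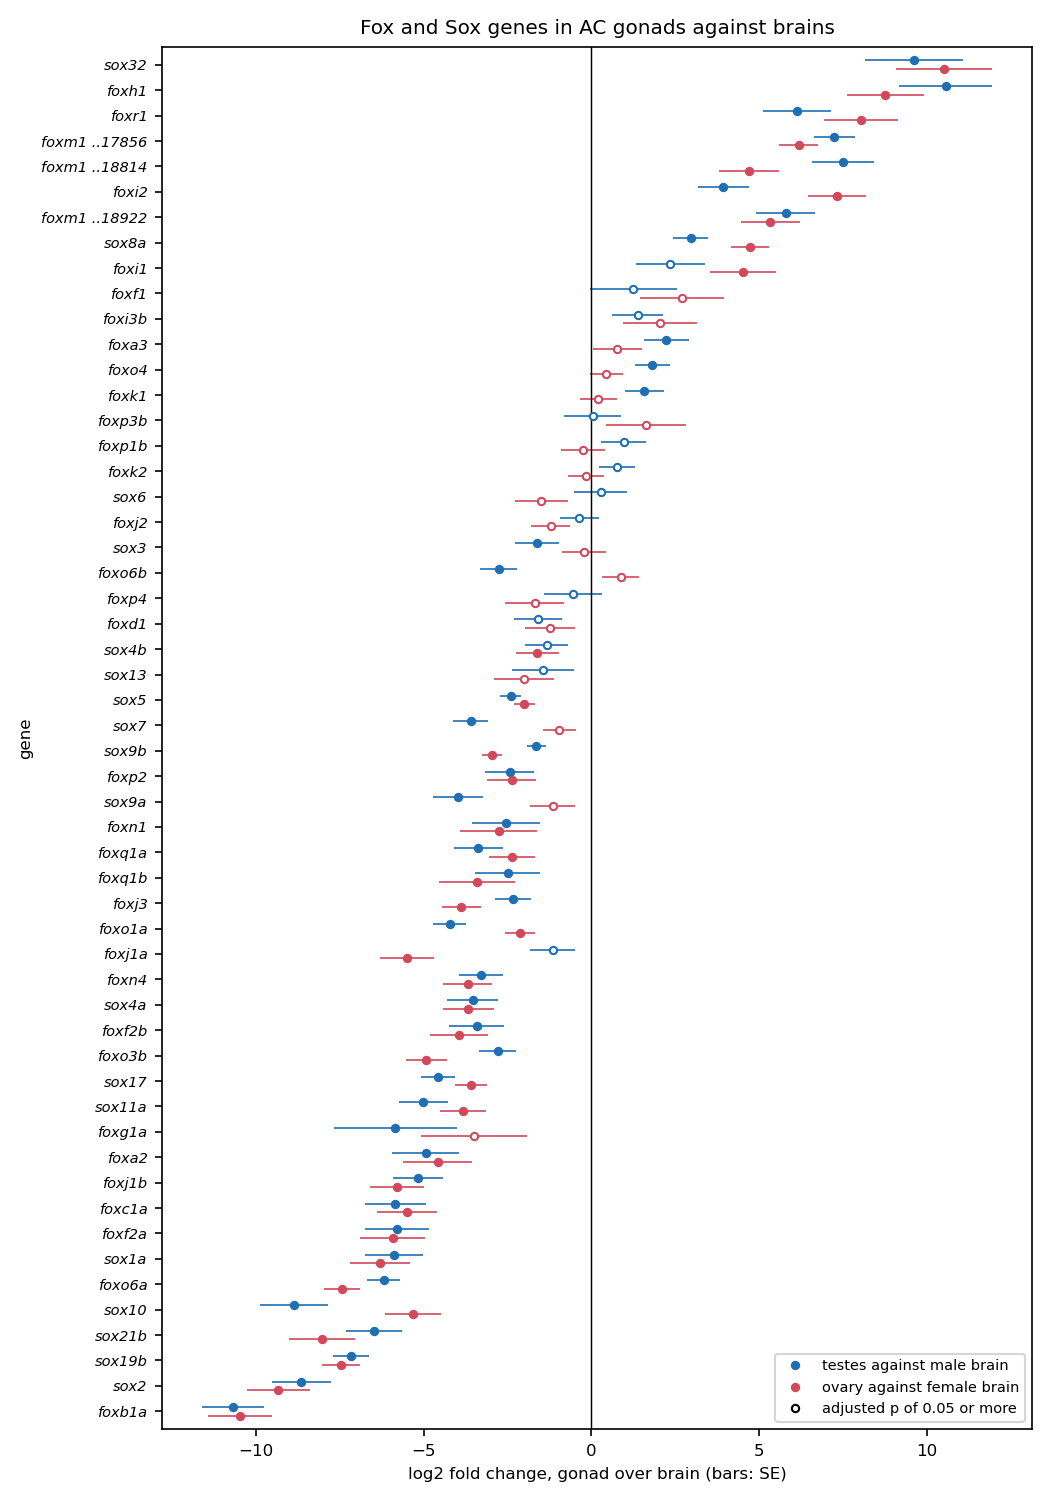
Log2 fold change ± SE of the 54 tested members in AC testes over male brain (blue) and AC ovary over female brain (red), with open symbols where the adjusted p was 0.05 or more. Members lie mostly left of 0, towards the brain (30 and 27 called lower), with foxh1, sox32, foxr1 and the foxm1 entries far to the right; the values of foxb1a, of sox32 and of foxh1 in males rest on a group with no counts and bound nothing.

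Several SoxB genes were brain-high. sox2, a SoxB1 gene of neural progenitors, had 0, 0, 0.0762 and 0.225 TPM in testes and 0, 0.157, 0 and 0 TPM in ovary. In male brain it had 46.4, 37.8 and 73.3 TPM, and in female brain 32.0, 85.8 and 54.5 TPM. The log2 fold change was -8.64 ± 0.88 for testes over male brain (edgeR, adjusted p = 1.32e-06) and -9.33 ± 0.93 for ovary over female brain (adjusted p = 8.96e-07). sox19b, a fish SoxB1 gene, reached 0.258 TPM at most in a gonad, with 21.4, 24.6 and 23.2 TPM in male brain and 30.3, 20.0 and 23.2 TPM in female brain, and its log2 fold changes were -7.18 ± 0.54 and -7.47 ± 0.56. The levels of sox1a, also SoxB1, were 0.114 to 0.740 TPM in testes, 0 to 0.847 TPM in ovary, 29.3 to 50.5 TPM in male brain and 14.3 to 63.1 TPM in female brain. sox21b, of the SoxB2 group that promotes neuronal differentiation, had at most 0.348 TPM in a gonad, against 15.2, 33.6 and 36.1 TPM in male brain and 2.81, 32.6 and 38.1 TPM in female brain. All 4 genes were separate between gonad and brain in every library.

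sox3 differed from the other SoxB1 genes in being expressed in gonads as well. It had 5.17, 3.91, 10.7 and 10.97 TPM in testes, 1.58, 30.1, 32.7 and 17.4 TPM in ovary, 23.7, 29.7 and 46.2 TPM in male brain, and 17.3, 38.2 and 53.0 TPM in female brain. The ovaries overlapped the female brains (log2 fold change -0.23 ± 0.65, adjusted p = 0.772), and the testes lay below all male brains (-1.61 ± 0.66, adjusted p = 0.0427, and 0.0577 without male brain replicate 1). Between testes and ovary the change was -1.46 ± 0.62 (adjusted p = 0.0871), and -1.81 ± 0.44 (adjusted p = 0.00669) without ovary replicate 1, the ovary with 1.58 TPM.

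In the SoxC group, which acts in newly formed neurons, the 3 members were brain-high to different degrees. sox11a had 0.716, 0.83, 0.900 and 0.828 TPM in testes, 0, 3.04, 1.47 and 2.49 TPM in ovary, 31.1, 42.5 and 40.5 TPM in male brain, and 29.3, 35.8 and 46.3 TPM in female brain (log2 fold change -5.01 ± 0.73 for testes over male brain and -3.82 ± 0.69 for ovary over female brain). sox4a had 1.59, 1.33, 0.979 and 1.43 TPM in testes, 0, 2.86, 0.935 and 1.14 TPM in ovary, 23.7, 17.8 and 27.2 TPM in male brain, and 11.1, 31.8 and 31.8 TPM in female brain (-3.54 ± 0.75 and -3.67 ± 0.76). Its copy sox4b was less contrasted, with 1.05, 1.78, 1.71 and 1.48 TPM in testes, 0.0785, 1.51, 2.26 and 2.51 TPM in ovary, 7.18, 5.19 and 3.62 TPM in male brain, and 5.74, 7.80 and 8.93 TPM in female brain. sox4b was called between ovary and female brain (-1.61 ± 0.64, adjusted p = 0.0372) and missed the threshold between testes and male brain (-1.33 ± 0.64, adjusted p = 0.0808).

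Among the SoxD genes, which lack a transactivation domain and modulate other Sox proteins, sox5 had 5.35, 3.19, 3.59 and 4.05 TPM in testes, 3.63, 6.49, 3.71 and 4.45 TPM in ovary, 27.9, 21.0 and 21.8 TPM in male brain, and 33.3, 30.4 and 19.0 TPM in female brain. Gonads and brains did not overlap (log2 fold change -2.40 ± 0.31 in testes over male brain and -1.99 ± 0.30 in ovary over female brain). sox6 (0 to 0.551 TPM in gonads, 0.335 to 0.786 TPM in brains) and sox13 (0 to 0.423 TPM in gonads, 0.209 to 2.54 TPM in brains) were scarce and passed in neither comparison.

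sox10, the SoxE gene of oligodendrocytes and neural crest, had 0.0584, 0.0136, 0.108 and 0.0667 TPM in testes, 0.0138, 1.67, 0.570 and 0.121 TPM in ovary, 21.3, 37.3 and 44.2 TPM in male brain, and 20.9, 37.9 and 32.4 TPM in female brain. The log2 fold change was -8.87 ± 1.02 for testes over male brain (edgeR, adjusted p = 4.19e-06) and -5.32 ± 0.85 for ovary over female brain (adjusted p = 7.05e-05). Beside it, 6 oligodendrocyte markers summed to 113 to 168 TPM in testes, 14.4 to 117.5 TPM in ovary, 4297 to 9060 TPM in male brain and 4599 to 6294 TPM in female brain. They did not all run with sox10: plp1a and mbpb were called higher in both gonads than in brain, and the other 4 lower. Most of the gonad sums came from plp1a, which averaged 124.8 TPM in testes and 66.05 TPM in ovary. The part of these markers in the sox10 difference was not tested.

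Brain-high Fox genes came from several groups. foxb1a, expressed in the developing diencephalon and hindbrain of vertebrates, had no counted read in any of the 8 gonad libraries, with 19.0, 33.9 and 30.0 TPM in male brain and 9.91, 23.3 and 39.9 TPM in female brain. It was at least 372-fold lower in testes than in male brain and at least 263-fold lower in ovary than in female brain (limit set by 3 counts over the group). foxo6a, of the insulin-regulated FoxO group, had 0 to 0.25 TPM in gonads, 11.7, 16.7 and 12.7 TPM in male brain, and 13.6, 15.99 and 14.2 TPM in female brain (log2 fold change -6.20 ± 0.50 and -7.44 ± 0.55). Within the same group, foxo3b had 0.787 to 1.54 TPM in testes, 0.0542 to 0.930 TPM in ovary, 8.26 to 12.0 TPM in male brain and 13.6 to 37.2 TPM in female brain.

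foxp2, a gene of vocal learning circuits in birds and mammals, had 0.0717 to 0.797 TPM in testes, 0.0462 to 0.57 TPM in ovary, 2.64 to 4.71 TPM in male brain and 1.09 to 5.52 TPM in female brain, and was lower in both gonads (log2 fold change -2.43 ± 0.73 and -2.37 ± 0.74). Its relatives foxp1b (0.0733 to 3.5 TPM in gonads, 1.59 to 3.84 TPM in brains) and foxp4 (0 to 1.33 TPM in gonads, 0.601 to 2.87 TPM in brains) overlapped between gonad and brain and passed in neither comparison.

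Some genes of restricted brain territories varied between the brain pieces. foxg1a, a telencephalon gene, had 9.21, 0 and 0.246 TPM in male brain and 2.69, 7.91 and 0 TPM in female brain, against 0, 0, 0.136 and 0 TPM in testes and 0, 0, 0.359 and 0.429 TPM in ovary. Brains with a high and with no foxg1a were found in both sexes, and the gonads overlapped them. Its call between testes and male brain (log2 fold change -5.84 ± 1.84, adjusted p = 0.0125) was lost without male brain replicate 1 (-1.46, adjusted p = 0.556). foxa2, a gene of the floor plate and of dopaminergic neurons in mouse, had 0.0941, 1.41 and 3.56 TPM in male brain and 1.21, 1.07 and 1.77 TPM in female brain, against at most 0.0861 TPM in a gonad.

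A list of 41 other neural and glial genes was set beside the members. Of the 36 found and tested, 2 were higher and 29 lower in testes than in male brain (median log2 fold change -5.92; 32.5% of all genes were higher and 32.5% lower), and 2 were higher (arxa and emx1) and 29 lower in ovary than in female brain (median -5.91; 32.4% and 35.4% of all genes). Both medians were further below 0 than those of the Fox and Sox genes.

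sox32 and sox17 are SoxF genes that lie 26.1 kb apart on chromosome 9 of fAstCal1.2, sox32 from 20920385 to 20921780 and sox17 from 20947863 to 20949778. Whether other genes lie between them was not looked at. Their levels were ordered in opposite ways. sox17, which acts in endoderm and in arterial endothelium, had 0.891, 0.999, 0.586 and 0.991 TPM in testes, 0.858, 2.76, 1.66 and 0.503 TPM in ovary, 25.5, 32.4 and 19.8 TPM in male brain, and 20.9, 29.1 and 28.4 TPM in female brain. Its log2 fold change was -4.57 ± 0.50 in testes over male brain (edgeR, adjusted p = 2.54e-06) and -3.60 ± 0.48 in ovary over female brain (adjusted p = 1.31e-05), whereas sox32 was higher in gonads and uncounted in brains. Another SoxF gene, sox7, had 2.11, 2.09, 1.92 and 1.25 TPM in testes, 2.86, 12.3, 6.09 and 1.83 TPM in ovary, 36.0, 20.9 and 15.0 TPM in male brain, and 12.6, 18.1 and 15.4 TPM in female brain. SOX18, also SoxF, carries a symbol in capitals, which the member rule left out, and was not brain-high. Its range was 1.08 to 2.12 TPM in testes and 2.22 to 6.88 TPM in ovary. In male brain it was 1.28 to 1.50 TPM, and in female brain 1.34 to 2.32 TPM. Endothelial markers (3 genes) summed to 6.85 to 15.1 TPM in testes, 2.72 to 19.4 TPM in ovary, 45.5 to 58.5 TPM in male brain and 37.05 to 53.1 TPM in female brain, and their part in the sox17 and sox7 differences was not tested.

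Another set of neighbours held foxc1a, foxf2a and foxq1a on chromosome 18 (16751881 to 16754104, 16760344 to 16763357 and 16764368 to 16765816), with foxq1b (6808633 to 6810023) and foxf2b (6814867 to 6818870) on chromosome 17. In mouse, Foxc1 and Foxf2 act in the cells that surround brain vessels. All 5 were brain-high. foxc1a had 0.0259 to 0.313 TPM in testes, 0 to 0.404 TPM in ovary, 8.04 to 11.5 TPM in male brain and 7.71 to 11.2 TPM in female brain. foxf2a had 0 to 0.315 TPM in testes, 0 to 0.276 TPM in ovary, 5.80 to 11.5 TPM in male brain and 7.64 to 12.6 TPM in female brain. The other 3 reached 6.36 TPM at most in a brain, and all 5 were called lower in both gonads, with log2 fold changes from -5.84 ± 0.90 (foxc1a) to -2.50 ± 0.97 (foxq1b) in testes over male brain.

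The a and b copies of foxo6 and sox9 were set side by side as examples; no difference between copies was tested. foxo6b, the copy of the brain-high foxo6a, had 0.996, 1.27, 2.49 and 0.344 TPM in testes, 9.22, 5.45, 18.2 and 11.7 TPM in ovary, 8.98, 10.9 and 12.3 TPM in male brain, and 5.98, 11.4 and 13.6 TPM in female brain. The ovaries overlapped the female brains (log2 fold change 0.88 ± 0.55, adjusted p = 0.171), while the testes lay below the male brains (-2.76 ± 0.56, adjusted p = 0.000608). In the SoxE pair, sox9a had at most 0.329 TPM in testes and 1.64 TPM in ovary, with 2.40, 4.43 and 4.18 TPM in male brain and 1.32, 3.30 and 4.29 TPM in female brain. sox9b had 5.19, 7.16, 6.48 and 5.87 TPM in testes, 1.05, 2.73, 2.69 and 2.59 TPM in ovary, 13.8, 18.4 and 25.1 TPM in male brain, and 23.1, 23.8 and 23.2 TPM in female brain. sox9b was thus the more abundant copy in all 14 libraries.

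**Figure D3:**
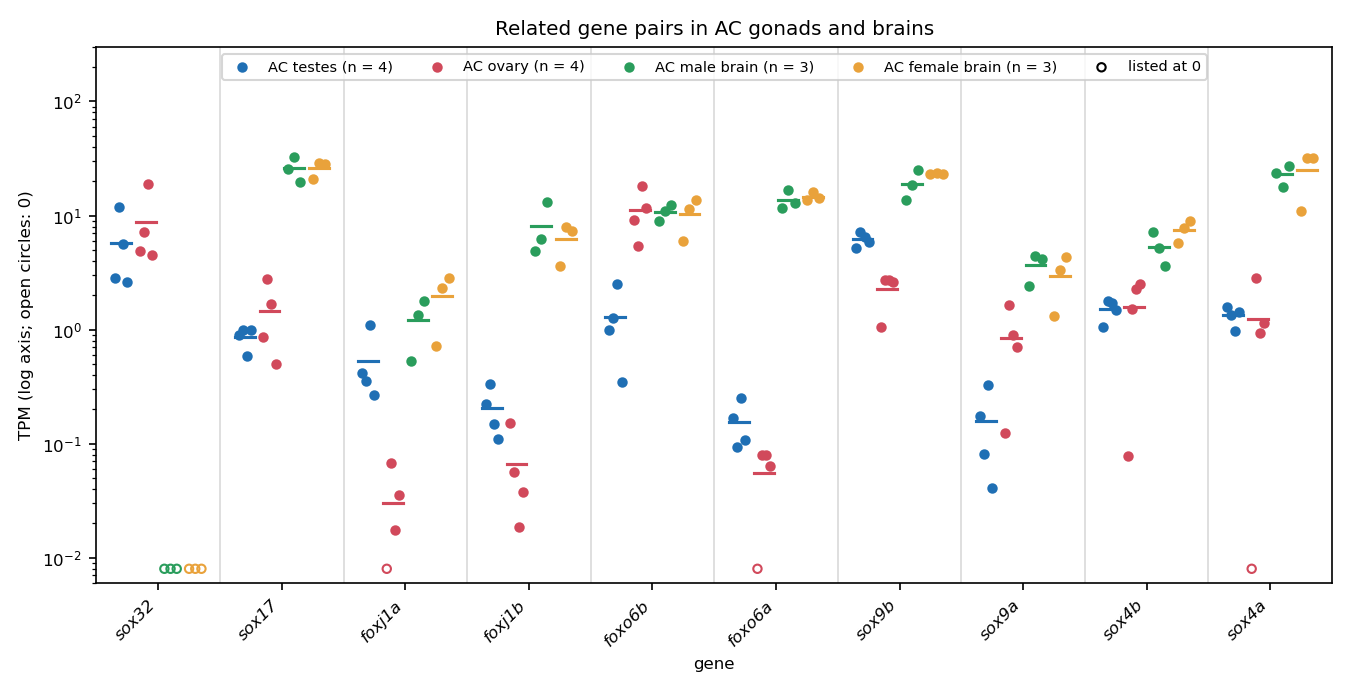
TPM (log axis) of sox32 and sox17, foxj1a and foxj1b, foxo6b and foxo6a, sox9b and sox9a, and sox4b and sox4a in AC testes, ovary, male brain and female brain; each point is a library. sox32 is seen in gonads alone and sox17 is highest in brains (19.8 to 32.4 TPM); foxo6a is low in all gonads (at most 0.25 TPM) while foxo6b reaches 18.2 TPM in ovary.

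Between testes and ovary, 15 of the 54 tested members were called, 7 higher and 8 lower in testes. That is 27.8% of members, and 30.4% of all genes were called (16.2% higher and 14.2% lower), so the members were called about as often as genes at large. The median log2 fold change of the members was 0.21, and 0.02 over all genes. Of the Fox genes 6 were higher and 4 lower in testes, and of the Sox genes 1 was higher and 4 lower. The groups did not overlap for 6 of the 7 higher and 4 of the 8 lower members, and for 87.7% of all genes called higher and 69.1% of those called lower. AC ovary replicate 1 entered each of these values; without it 19 members were called, 14 of them among the 15, and the 5 gained were foxj1b, foxn1 and foxo4 (higher in testes) and sox11a and sox3 (lower in testes).

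The Sox genes with known roles in gonads were split. sox9b, the Sertoli-cell copy in several fishes, was higher in testes, with a mean of 6.18 ± 0.843 TPM in testes and 2.26 ± 0.815 TPM in ovary (SD, n = 4 each) and no overlap (log2 fold change 1.11 ± 0.27, edgeR, adjusted p = 0.00716). sox8a was lower in testes in every library (-1.87 ± 0.44, adjusted p = 0.00591). sox9a (-2.46 ± 0.69, adjusted p = 0.016), sox10 (-3.33 ± 0.87, adjusted p = 0.0107) and sox7 (-1.91 ± 0.48, adjusted p = 0.00868) were called lower in testes too, but at least 1 ovary lay within the range of the testes, and these 3 calls were lost on log2-transformed TPM values with limma. foxi2 also overlapped and was lower in testes (-2.23 ± 0.54, adjusted p = 0.00653).

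Several Fox genes were separate between testes and ovary. foxo6b was lower in testes (-3.53 ± 0.55, adjusted p = 0.000393). foxo1a, which restrains proliferation of granulosa cells in mammals, was lower as well, with 1.01, 0.875, 1.15 and 0.996 TPM in testes and 1.86, 10.01, 5.48 and 4.55 TPM in ovary (-2.75 ± 0.46, adjusted p = 0.000598). foxi1 had 0.431, 0.398, 0.454 and 0.394 TPM in testes and 2.10, 1.59, 1.62 and 1.90 TPM in ovary (-2.53 ± 0.70, adjusted p = 0.0148). In all of these, every testis lay below every ovary. The related foxi3b ran the other way, with 0.754, 0.598, 1.46 and 0.833 TPM in testes and 0, 0.152, 0.251 and 0.102 TPM in ovary (2.54 ± 0.70, adjusted p = 0.0136). foxa3, an endoderm gene, was scarce but separate, with 0.480, 0.469, 0.615 and 0.458 TPM in testes and 0.0440, 0.0986, 0.122 and 0.0742 TPM in ovary (2.18 ± 0.56, adjusted p = 0.00962). Of the foxm1 entries, ENSACLG00000018814 (3.33 ± 0.62, adjusted p = 0.00133) and ENSACLG00000017856 (1.27 ± 0.39, adjusted p = 0.0238, with overlap, and called in 15 of 22 alternative settings) were higher in testes, and ENSACLG00000018922 missed the threshold (0.91 ± 0.59, adjusted p = 0.258). Beside them, 3 spermatocyte markers (dmc1, sycp1 and sycp3) summed to 642, 445, 958 and 309 TPM in testes and 3.33 to 9.88 TPM in ovary, and their part in the foxm1 differences was not tested. foxj3 was the least secure call, at 1.50 ± 0.52 (adjusted p = 0.0418, and 0.0537 without ovary replicate 1) and called in 8 of 22 alternative settings.

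**Figure D4:**
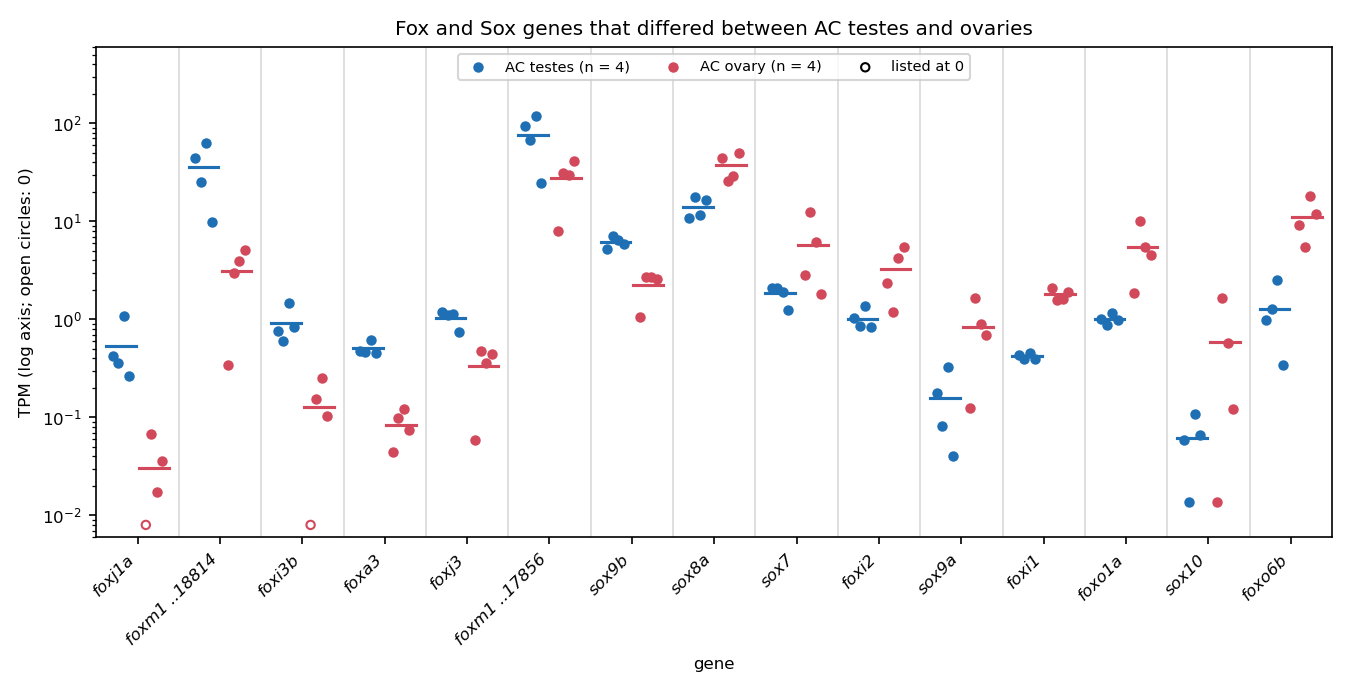
TPM (log axis) of the 15 members called between AC testes and ovary; points are libraries, open circles are libraries at 0, and lines are group means. The testis points lie above the ovary points for foxj1a, foxi3b, foxa3 and sox9b and below them for foxo6b, foxo1a, foxi1 and sox8a.

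Beside these members, 29 entries of a list of 35 genes of gonadal differentiation were found and 27 tested: 6 were higher and 9 lower in testes than in ovary (16.2% and 14.2% of all genes). dmrt1, the testis factor of many vertebrates (log2 fold change 3.31), and amh, the anti-Müllerian hormone gene (2.55), were higher in testes. The ovarian aromatase cyp19a1a (-9.52) and the follicle enzyme hsd17b1 (-7.15) were lower in testes. Other listed genes ran against this order. Aromatase entries ENSACLG00000010505 (3.31, edgeR, adjusted p = 0.0167) and ENSACLG00000008094 (2.87, adjusted p = 0.00536), each named CYP19A1, were higher in testes. ENSACLG00000008094 was also abundant in brain. It averaged 145 TPM in testes and 18.8 TPM in ovary, with 352 TPM in male brain and 431 TPM in female brain. inha, listed here as a Sertoli marker, was lower in testes (-1.58, adjusted p = 0.0158). Follicle markers (4 genes) summed to 19.7 to 22.4 TPM in testes and 82.1 to 652 TPM in ovary, and their part in the members that were lower in testes was not tested. No member carried the symbol of foxl2, the granulosa-cell Fox gene, or of sox30, so these genes were not analysed here.

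foxj1a and foxj1b, the copies of the master gene of motile cilia, differed between organs. foxj1a had 0.419, 0.357, 1.09 and 0.267 TPM in testes, 0, 0.0678, 0.0174 and 0.0357 TPM in ovary, 0.529, 1.36 and 1.79 TPM in male brain, and 0.715, 2.31 and 2.85 TPM in female brain. Every testis lay above every ovary (log2 fold change 3.77 ± 0.76, edgeR, adjusted p = 0.00221), and of the alternative settings only limma on log2(TPM + 1) lost the call. The testes overlapped the male brains (-1.16 ± 0.66, adjusted p = 0.136), while the ovaries lay below the female brains (-5.50 ± 0.81, adjusted p = 3.42e-05). foxj1b was brain-high in both sexes, with 0.222, 0.334, 0.149 and 0.109 TPM in testes, 0.151, 0.0560, 0.0186 and 0.0379 TPM in ovary, 4.88, 6.22 and 13.1 TPM in male brain, and 3.64, 7.91 and 7.28 TPM in female brain. Between testes and ovary it missed the threshold (1.05 ± 0.74, adjusted p = 0.301), and it passed without ovary replicate 1 (2.29 ± 0.64, adjusted p = 0.0146).

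A list of 38 ciliary genes was set beside them. It mixed genes that Foxj1 and Rfx factors switch on in other vertebrates with regulators, among them rfx2, rfx3, rfx4, e2f4 and e2f5. Its counts are therefore not counts of targets alone. From this list 31 entries were found and tested. Of the 31, 21 were higher and 1 lower in testes than in ovary (median log2 fold change 2.91), where 16.2% of all genes were higher and 14.2% lower. tekt2, a tektin of the axoneme, averaged 14.55 ± 9.48 TPM in testes and 0.0121 ± 0.0242 TPM in ovary (SD, n = 4 each). rfx2 averaged 65.2 ± 35.7 TPM in testes and 8.06 ± 5.06 TPM in ovary. In testes 28 of the 31 were higher and 2 lower than in male brain (32.5% of all genes each way), unlike foxj1a, which did not pass there, and foxj1b, which was lower in testes. In ovary 10 were higher and 12 lower than in female brain (32.4% and 35.4% of all genes). The spermatid and sperm markers, at 95.8 to 966 TPM in testes and 2.11 to 9.29 TPM in ovary, were higher in testes than in ovary, as foxj1a was. All 4 were also called higher in testes than in male brain, where foxj1a did not pass. Their part in the foxj1a difference was not tested. Since ropn1l and spag6 were among the genes that stood on both lists, the lists are not independent.

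Whether the difference between gonad and brain depended on sex was tested with an interaction term, (testes over male brain) over (ovary over female brain). It passed for 4 of 54 members, or 7.41%, and for 12.4% of all genes (7.63% higher and 4.78% lower). The term was 4.34 ± 1.04 for foxj1a (edgeR, adjusted p = 0.0154) and 1.33 ± 0.41 for sox9b (adjusted p = 0.0465), which were relatively higher in testes. It was -3.635 ± 0.79 for foxo6b (adjusted p = 0.00941) and -2.64 ± 0.72 for sox7 (adjusted p = 0.029), which were relatively lower in testes. Without AC male brain replicate 1, sox7 (adjusted p = 0.0916) and sox9b (adjusted p = 0.129) did not pass and 2 members remained; without AC ovary replicate 1, 9 members passed, among them these 4.

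No member was called between male and female brain, and neither was any gene (0.00% of 20893 genes by edgeR, with 564 genes and 2 members at an unadjusted p under 0.05). DESeq2 called 10 genes and limma on log2(TPM + 0.1) called 8, with no member among them. The members at an unadjusted p under 0.05 were foxp3b, the regulatory T cell gene, with 2.29, 1.31 and 0.825 TPM in male brain and 0.227, 0 and 0 TPM in female brain (log2 fold change 3.52 ± 1.21), and foxi3b, with 0.668, 0.302 and 0.235 TPM in male brain and 0.0656, 0 and 0 TPM in female brain (3.20 ± 1.13). Both were picked out by their unadjusted p, and both had an adjusted p of 1. The foxp3b values rest on 8, 5 and 6 reads in male brain and on 2, 0 and 0 in female brain. Those of foxi3b rest on 4, 2 and 3 reads in male brain and on 1, 0 and 0 in female brain.

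Testes of TM, MZ and AC were compared on counts of reads mapped to the AC genome, given as CPM (counts scaled to the library total) after TMM scaling. Of the 47 members tested, 8 were called between TM and AC, 4 higher and 4 lower in TM, or 17.0%, where 18.8% of 20705 genes and TE families were called (8.87% higher, 9.93% lower). Between MZ and AC 5 were called, 3 higher and 2 lower in MZ, or 10.6%, where 8.90% of features were called (5.17% higher, 3.73% lower). Between TM and MZ 4 were called, 2 higher and 2 lower in TM, or 8.51%, where 10.2% were called (3.77% higher, 6.45% lower). The members were called about as often as other features, and in all of these calls the groups did not overlap, as for 92.9% of features called in TM over AC, 98.3% in MZ over AC and 98.4% in TM over MZ. Leaving out 1 library at a time gave 4 to 10 called members in TM over AC, 2 to 6 in MZ over AC and 2 to 6 in TM over MZ. Called in every alternative setting were foxn1, sox10, sox4b and sox1a in TM over AC, foxn1 and sox8a in MZ over AC, and sox8a in TM over MZ. All of these settings used the same deposited counts. These comparisons share samples, and a species difference in how well reads map to the AC genome was not tested. The MZ fish were dominant males from a commercial supplier, and AC and TM had been raised in aquaria. In comparisons with MZ, species and source of the fish therefore cannot be told apart.

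foxn1, known for the thymic epithelium, was higher in both other species than in AC. It had 5.33, 2.86, 5.29 and 4.46 CPM in TM, 2.62 and 3.18 CPM in MZ, and 0.521, 0.681, 0.963 and 0.620 CPM in AC. The log2 fold change was 2.67 ± 0.32 for TM over AC (edgeR, adjusted p = 0.000263) and 2.04 ± 0.35 for MZ over AC (adjusted p = 0.00591). sox10 had 1.06, 1.43, 0.958 and 0.856 CPM in TM, 0.654 and 0.897 CPM in MZ, and 0.160, 0.0401, 0.275 and 0.194 CPM in AC. The change was 2.63 ± 0.49 for TM over AC (adjusted p = 0.00386) and 2.16 ± 0.56 for MZ over AC (adjusted p = 0.0341). In AC the sox10 values rest on 4, 1, 8 and 5 reads. Beside it, the 6 oligodendrocyte markers summed to 205 to 285 CPM in TM, 123 to 223 CPM in MZ and 59.3 to 102 CPM in AC. Of the 5 tested, plp1a alone was called in TM over AC (1.62, edgeR, adjusted p = 0.000816) and in MZ over AC (1.10, adjusted p = 0.0277). In AC, plp1a was higher in gonads than in brains. The part of these markers in the sox10 difference was not tested.

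sox8a set MZ apart. It had 14.5, 12.9, 16.3 and 11.6 CPM in TM, 1.62 and 3.48 CPM in MZ, and 16.5, 29.8, 17.7 and 27.3 CPM in AC. The log2 fold change was -3.16 ± 0.40 for MZ over AC (edgeR, adjusted p = 0.000942) and 2.44 ± 0.38 for TM over MZ (adjusted p = 0.00305). foxk2, a broadly expressed gene, was moderately lower in MZ, with 28.0, 33.5, 33.0 and 34.5 CPM in TM, 18.3 and 12.8 CPM in MZ, and 27.1, 29.4, 24.8 and 36.0 CPM in AC (-0.91 ± 0.22, adjusted p = 0.0283, for MZ over AC and 1.05 ± 0.22, adjusted p = 0.0147, for TM over MZ). Leydig markers (3 genes) summed to 428 to 1001 CPM in TM, 1214 to 1288 CPM in MZ and 368.5 to 573 CPM in AC. Sertoli markers (3 genes) summed to 166 to 208 CPM in TM, 187 and 270.5 CPM in MZ, and 129 to 166 CPM in AC. The MZ libraries were far apart in spermatocyte markers (258 and 1488 CPM) and in spermatid and sperm markers (104.5 and 412 CPM). The part of these markers in the MZ values was not tested. foxq1b was higher in MZ, with 0.635, 0.313, 0.792 and 0.135 CPM in TM, 0.962 and 1.46 CPM in MZ, and 0.240, 0.120, 0.344 and 0.233 CPM in AC (2.34 ± 0.62 for MZ over AC, adjusted p = 0.0401, called in 5 of 15 alternative settings).

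In TM, foxr1 and foxo6b were higher than in AC. foxr1 had 390.4, 522, 343 and 646 CPM in TM, 284 and 203 CPM in MZ, and 32.6, 296, 95.3 and 119.5 CPM in AC (log2 fold change 1.81 ± 0.52 for TM over AC, edgeR, adjusted p = 0.0352, called in 8 of 15 alternative settings). The 5 oocyte markers summed to 3272 to 4747 CPM in TM, 2556 to 4409 CPM in MZ and 2206 to 3956 CPM in AC, and their part in the foxr1 difference was not tested. foxo6b had 13.8, 10.2, 17.8 and 7.03 CPM in TM, 2.19 and 4.00 CPM in MZ, and 2.73, 3.69, 6.40 and 1.01 CPM in AC (1.82 ± 0.49 for TM over AC, adjusted p = 0.0245, and 1.98 ± 0.64 for TM over MZ, adjusted p = 0.0725). The TM values of foxo6b were above every value of the other species.

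Lower in TM than in AC were sox4b, sox1a, foxp2 and foxi2. sox4b had 0.846, 0.849, 0.792 and 0.676 CPM in TM, 1.69 and 0.972 CPM in MZ, and 2.04, 5.29, 3.68 and 4.07 CPM in AC (log2 fold change -2.25 ± 0.35 for TM over AC, edgeR, adjusted p = 0.00138). The AC values of sox4b rest on 51, 132, 107 and 105 reads by TEtranscripts, where salmon gave 19, 35, 33 and 29 for the same libraries. The size of its difference may therefore depend on how reads were counted, which was not tested between species. sox1a had no read in the 4 TM libraries, with 0.0385 and 0.0748 CPM in MZ and 0.120, 0.761, 0.516 and 0.271 CPM in AC, and was at least 12.8-fold lower in TM than in AC (limit set by 3 counts over the TM group; adjusted p = 0.00872). The AC values of sox1a rest on 3, 19, 15 and 7 reads. foxp2 had 0.508, 0.313, 0.417 and 0.315 CPM in TM, 1.73 and 0.860 CPM in MZ, and 0.922, 0.641, 1.10 and 1.24 CPM in AC (-1.32 ± 0.39 for TM over AC, adjusted p = 0.0383, called in 6 of 15 alternative settings, and -1.72 ± 0.45 for TM over MZ, adjusted p = 0.0349). For foxp2, too, the counts differed: AC testes held 23, 16, 32 and 32 reads by TEtranscripts and 10, 2, 22 and 16 by salmon. Its difference may likewise depend on how reads were counted. foxi2 had 0.677, 0.447, 0.62 and 1.04 CPM in TM, 0.885 and 1.27 CPM in MZ, and 1.68, 1.48, 2.10 and 1.47 CPM in AC (-1.27 ± 0.34 for TM over AC, adjusted p = 0.0243). foxc1a, at 0, 0.0447, 0.0833 and 0.135 CPM in TM and 0.654 and 0.561 CPM in MZ, was called between those species (-3.12 ± 0.83, adjusted p = 0.036). These foxc1a values rest on 0, 1, 2 and 3 reads in TM and on 17 and 15 reads in MZ.

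**Figure D5:**
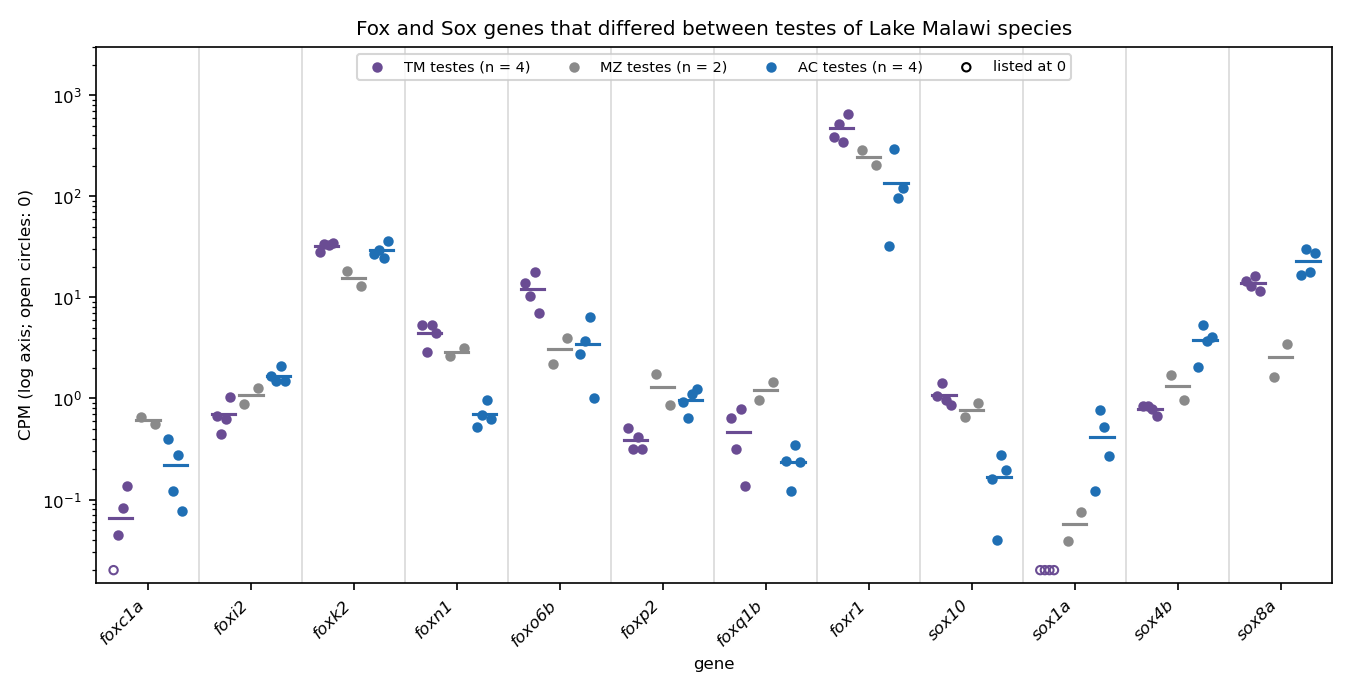
TMM-scaled CPM (log axis) of the 12 members called in any comparison of testes between TM, MZ and AC; each point is a library. foxn1 and sox10 are lowest in AC, sox8a is lowest in MZ (1.62 and 3.48 CPM), and sox4b and sox1a are lowest in TM, where sox1a had no reads.

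The gonad genes of AC were also present in the testes of the other species. foxh1 had 17.8, 18.9, 18.3 and 16.6 CPM in TM, 17.5 and 10.5 CPM in MZ, and 12.5, 12.9, 13.8 and 14.8 CPM in AC (adjusted p = 0.149 for TM over AC and 0.909 for MZ over AC, edgeR). sox32 had 4.57, 5.09, 5.25 and 3.78 CPM in TM, 2.54 and 2.43 CPM in MZ, and 2.49, 11.4, 4.47 and 2.40 CPM in AC (adjusted p = 0.855 and 0.289). sox3 had 14.4, 7.59, 14.2 and 11.8 CPM in TM, 9.42 and 3.55 CPM in MZ, and 4.33, 3.37, 8.63 and 9.61 CPM in AC (adjusted p = 0.149 and 1). Of 30 ciliary genes tested, 4 were higher and 1 lower in TM than in AC (8.87% and 9.93% of all features).

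A further 10 entries carry a Fox or Sox symbol in capitals, which the rule left out (FOXJ3, FOXK2, FOXL3, FOXN2, FOXO1, 2 entries of SOX14, SOX18, SOX6 and SOX8); they were looked at after the values were seen. Between gonad and brain SOX8 ran opposite to sox8a, with 0.242, 0.292, 0.445 and 0.285 TPM in testes, 2.25, 2.17, 1.66 and 4.06 TPM in ovary, 75.2, 35.9 and 51.4 TPM in male brain, and 39.6, 82.0 and 34.5 TPM in female brain. It was lower in testes than in ovary (log2 fold change -3.49 ± 0.46, edgeR, adjusted p = 0.00012), as sox8a was. FOXJ3 ran against foxj3: it had 2.59, 3.11, 4.37 and 3.30 TPM in testes and 0.329, 0.166 and 0.409 TPM in male brain, whereas foxj3 had 1.19, 1.10, 1.12 and 0.743 TPM in testes and 5.81, 6.05 and 9.15 TPM in male brain. With these entries added, 63 members were tested. Of them 18 were called in testes over ovary (28.6%, with 30.4% of all genes called). In ovary over female brain 42 were called (66.7%, with 67.7% of all genes), and 47 in testes over male brain (74.6%, with 65.0% of all genes).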

How the data were processed

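Tissue RNA had been enriched for poly(A), made into directional libraries and sequenced by the study. For AC gonads and brains, the authors trimmed reads with Trimmomatic 0.39 and quantified genes with salmon 1.5.1, and deposited estimated counts (78.4% of them whole) and a TPM-like score, which sums to 1000000 per library once 382 repeated rows of 27359 are dropped. For Lake Malawi testes, the deposited counts of genes and 557 curated TE families came from STAR 2.5.4b alignments to the AC genome fAstCal1.2, counted with TEtranscripts.

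Estimated counts were rounded, filtered with filterByExpr, TMM-scaled and tested with edgeR 4.0.16 (R 4.3.3; robust quasi-likelihood) in 1 fit of 14 AC libraries (20893 genes) and 1 fit of 10 testis libraries (20705 features), with Benjamini-Hochberg adjustment over all features and a threshold of 0.05. The SE is not an output of edgeR. It was taken as the absolute log2 fold change divided by the square root of the F statistic of the test. Levels are TPM for AC and TMM-scaled CPM for testes. Overlap of groups was read on CPM. On simulated counts with 20893 genes for AC testes over ovary, 66% of genes changed 2-fold and 98% of those changed 4-fold were recovered, and with 20705 for TM over AC 59% and 95%. Among unchanged genes, 8 and 12 were called. Every simulated gene had the same dispersion of 0.05, and the groups did not otherwise differ. Recovery of members that vary more between libraries, as foxr1 did, was therefore not measured. Alternatives were DESeq2 1.42.0, limma 3.58.1 on log2(TPM + 0.1) and log2(TPM + 1), total counts, no filter, only the groups compared, genes without TEs, TEtranscripts counts, a replicate block and each library left out; 2 more (capital symbols added, foxm1 left out) were chosen after seeing the data.

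The members and the lists of partner and marker genes were chosen with earlier results of these data known. Values in every library were given by rule for genes with known roles in gonad, brain or cilium and for the 4 largest changes in each direction per comparison without overlap; sox17, sox7, foxo6a, foxj3, foxp3b, the foxc1a, foxf2 and foxq1 neighbours, the third foxm1 entry and genes outside the rule that are named in counts were chosen after their values were seen. By the study's methods replicates came from size-matched individuals, so p-values measure the spread between tissue samples of these fish. Nothing in the labels says whether the fish came from separate families. Positions are those of RefSeq genes on fAstCal1.2, matched by symbol for 52 of 60 members. The gonads of the remaining species were not used here. Deposited group means were not used.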

Additional observations from a re-analysis of the deposited data

Results flagged for a closer look

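Of 112 groups of 4 libraries examined for the named members, 12 held a library far from the other 3. Chance gives about 5% of groups where values are normally spread. Scarce genes with 0 reads in most libraries are not, so the 5% does not hold for them. AC ovary replicate 1 was such a library for foxh1 (0.937 TPM, others 17.0 to 19.8), sox9b (1.045 TPM, others 2.59 to 2.73) and foxn1 (0.0997 TPM, others 0 to 0.0158). TPM values were not TMM-scaled. On TMM-scaled CPM, sox9b in ovary replicate 1 (4.93) lay close to the other ovaries (4.95 to 5.60). AC ovary replicate 2 was the only ovary with sox2 (0.157 TPM, 2 reads) and foxq1b (0.237 TPM, 3 reads). AC testes replicate 3 had more foxa3 (0.615 TPM, others 0.458 to 0.480) and foxn1 (0.395 TPM, others 0.188 to 0.222). By salmon it was the only AC testis with foxg1a (0.1365 TPM, 2 reads). The TEtranscripts counts held 1, 2 and 1 foxg1a reads in AC testes replicates 1, 3 and 4. AC testes replicate 4 had more foxk2 (19.8 TPM, others 15.3 to 15.7). TM testes replicate 2 had more foxa2 (0.402 CPM, others 0 to 0.045) and sox6 (0.715 CPM, others 0.135 to 0.208), and TM testes replicate 4 more foxo3b (2.66 CPM, others 1.52 to 1.65).

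The gonad to brain difference was not the same in both sexes for 3 of the named members, by the interaction term on the log2 scale: 4.345 for foxj1a, -3.635 for foxo6b and 1.333 for sox9b.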

How the results depend on the processing

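No called member changed sign in any alternative. Called in every alternative were 9 of 15 members in AC testes over ovary, 33 of 36 in ovary over female brain, 35 of 41 in testes over male brain, 2 of 5 in MZ over AC, 4 of 8 in TM over AC, 1 of 4 in TM over MZ and 1 of 4 in the interaction. Leaving out 1 library at a time gave 13 to 20, 34 to 38, 37 to 45 and, for male over female brain, 0 called members in the AC comparisons; 2 to 6 in MZ over AC (5 with all libraries); 4 to 10 in TM over AC (8); 2 to 6 in TM over MZ (4); and 2 to 9 in the interaction (4). MZ over AC fell to 2 without AC testes replicate 2, and to 3 without AC testes replicate 4, MZ replicate 2, TM replicate 1 or TM replicate 3. TM over AC fell to 4 without AC testes replicate 3, TM replicate 1 or TM replicate 3. TM over MZ fell to 2 without MZ replicate 2 or TM replicate 1, 2 or 3, where with a single MZ library that library is assumed to vary like the other groups. The interaction fell to 2 without AC female brain replicate 2 or 3, male brain replicate 1 or testes replicate 1 or 3, gave 9 without ovary replicate 1, 8 with DESeq2 and 2 with limma on log2(TPM + 0.1). The causes were not tested. Of 5574 settings of named members, 137 lost and 77 gained a call.

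Deviations of same-numbered replicates from their group means had correlations between -0.21 and 0.261. With so few libraries per group, these values cannot show whether same-numbered libraries came from the same fish. The main tests used no pairing. With the replicate block 2 members were called in MZ over AC and 2 in TM over MZ.

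Depth limits the scarce members: 54 of 60 were tested in AC and 47 in testes, and a call missed there is not an absence of change. The gonad against brain comparisons are limited by library protocols that differ by organ, those with ovary by its replicate 1, and those with MZ by having 2 libraries. Those with MZ are also limited by the other source of these fish.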
